A study of Mus musculus with 16 samples.

Results

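Pulmonary endothelial cells (ECs) of Fgfr1 loxP/loxP mice that had received 2 mg/kg LPS were compared with pulmonary ECs of WT mice that had received saline. The comparison takes 7 of the 16 libraries of the series, which are the 3 loxP/loxP libraries and the 4 saline libraries, and they were taken by their labels alone. The saline mice were male C57/BL6J WT mice aged 8 weeks. The loxP/loxP mice carry loxP sites in both Fgfr1 alleles and no Cre, and they were injected with tamoxifen as were the Fgfr1 iΔEC/iΔEC mice, whose Cre is driven by the VE-cadherin promoter and for which they served as controls. The study describes the knockout mice as adult and the loxP/loxP mice as littermates of them, while sex and age in weeks are not given in the sources used here. LPS was given intratracheally, and lungs were taken after 24 h in both groups. The lungs were digested, and CD31+ CD45- cells were isolated with magnetic beads and sequenced in bulk. Saline and loxP/loxP libraries belong to separate experiments of the study, so that experiment, genotype, tamoxifen and LPS change together here and cannot be told apart. Every p-value below describes the difference between these libraries and not the effect of LPS alone.

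Lipopolysaccharide (LPS) belongs to the outer membrane of Gram-negative bacteria. It is sensed by TLR4 with its partners CD14 and MD-2, and signaling through MyD88 and TRIF activates NF-kB and interferon regulatory factors. In the lung, ECs line the capillaries of the alveoli, and under LPS they are known to display adhesion molecules, release chemokines and loosen their junctions, while neutrophils and monocytes enter the tissue.

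Reads on genes numbered 13478726 to 18807007 in the saline libraries and 15969575 to 17002788 in the loxP/loxP libraries. The authors deposited FPKM, which divides the fragments of a gene by gene length and library size, in separate tables that they had scaled separately. The 7 libraries were rescaled together here, with factors between 0.989 and 1.035. Across genes, log2(FPKM + 1) of saline 1 correlated less with the other saline libraries (r from 0.911 to 0.920) than those did with each other (0.960 to 0.983), and the loxP/loxP libraries correlated at 0.960 to 0.974. Saline 1 thus stood apart from its group. Saline 3 stood apart from the other saline libraries in its lymphocyte transcripts. Mitochondrially encoded genes took 2.51%, 1.22%, 2.50% and 1.21% of the reads in saline 1 to 4 and 2.91%, 5.16% and 2.08% in loxP/loxP 1 to 3.

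The isolated fraction was first checked against markers of ECs and of other lung cells. EC markers were abundant in all 7 libraries. The 10 EC markers summed to 5303, 3397, 4025 and 3487 FPKM in saline 1 to 4 and to 2736, 2192 and 2368 FPKM in loxP/loxP 1 to 3, and Cldn5 was the most abundant of them in saline. Pecam1, which encodes the CD31 protein of the selection, was at 509, 352, 396 and 341 FPKM in saline and 465, 340.2 and 356 FPKM in loxP/loxP (log2 fold change -0.04 ± 0.22). Cdh5, which encodes VE-cadherin, was at 781, 677, 690.4 and 687 FPKM in saline and 419, 299.5 and 408 FPKM in loxP/loxP. Its groups were apart, yet its difference of -0.93 on the log2 scale did not reach the limit set for a call, which asks for an adjusted p (limma, Benjamini-Hochberg) of 0.05 or less and a change of 1 or more on the log2 scale in either direction. Of the 10 EC markers, Kdr, Tek and Ptprb were called lower and 0 were called higher, with a median log2 fold change of -0.79 beside 0.01 for all genes tested. Without loxP/loxP 2, 1 of them was called lower, and after quantile normalization 6. In a bulk fraction, fewer cells of a type and less RNA per cell cannot be told apart.

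Markers of leukocytes were higher in loxP/loxP, although CD45+ cells had been depleted. The 6 general leukocyte markers summed to 225, 156, 65.6 and 135 FPKM in saline and to 451, 599 and 541 FPKM in loxP/loxP, and 5 of the 6 were called higher (median 1.92). Ptprc, which encodes CD45, was at 10.8, 7.53, 3.51 and 5.97 FPKM in saline and 13.5, 16.5 and 22.8 FPKM in loxP/loxP (log2 fold change 1.28 ± 0.33, adjusted p = 0.024). The 8 macrophage markers, led by Lyz2, summed to 1111, 499.5, 756.5 and 400 FPKM in saline and to 1107, 1761 and 2694 FPKM in loxP/loxP, with 5 called higher (median 2.37). The scavenger receptor gene Marco was at 0, 1.69, 2.75 and 4.76 FPKM in saline and 30.5, 35.6 and 44.3 FPKM in loxP/loxP. The 6 monocyte markers, led by Chil3, summed to 164, 105, 147 and 80.0 FPKM in saline and to 309, 463 and 607 FPKM in loxP/loxP, with 5 called higher (median 1.46), or 3, 3 and 2 without saline 4, loxP/loxP 1 and loxP/loxP 2 in turn. The 8 neutrophil markers, led by S100a9, summed to 1360, 70.3, 304.9 and 74.6 FPKM in saline and to 1137, 2515 and 2573 FPKM in loxP/loxP. Saline 1 was therefore above loxP/loxP 1 in this sum, and 3 of the 8 were called higher with it (median 2.57) and 8 of the 8 without it, while leaving out any of saline 2, 3 and 4 or loxP/loxP 2 and 3 instead left 1. With all libraries the count was 5 with total reads, 8 with scaling on the EC markers and 2 after quantile normalization. Ly6g was at 0 in saline 4. S100a8, a calcium-binding alarmin of neutrophils, was at 327, 16.9, 62.4 and 16.1 FPKM in saline and 336, 729 and 777 FPKM in loxP/loxP. Of the remaining lists, 3 of 4 platelet markers and 5 of 5 tested erythroid markers were called higher (medians 2.07 and 3.11). Pf4, a platelet chemokine, was at 11.99, 10.1, 6.25 and 7.95 FPKM in saline and 58.3, 122 and 78.6 FPKM in loxP/loxP. Hbb-bs, a beta globin gene that can share reads with its paralogs, was at 9.12, 2.44, 3.48 and 5.06 FPKM in saline and 46.8, 185 and 54.8 FPKM in loxP/loxP. None of the 8 lymphocyte and 10 epithelial markers was called (for lymphocytes 2 were higher without saline 1 and with scaling on the EC markers and 2 lower without saline 3, and for epithelium 2 were higher with that scaling and 2 lower after quantile normalization), while 4 of 6 tested fibroblast markers and 2 of 8 mural markers were called lower, against 1 of 6 and 0 of 8 when the libraries were scaled on the EC markers. Without loxP/loxP 2 the counts were 1 and 1. That scaling, and leaving out saline 1, also gave 2 mural markers called higher, and Acta2, the smooth muscle actin, was at 76.6, 15.2, 8.84 and 6.63 FPKM in saline and 51.8, 71.8 and 104 FPKM in loxP/loxP (log2 fold change 2.08 ± 0.75, adjusted p = 0.0754). One fibroblast marker, Dcn, was called higher instead. Epithelial transcripts were abundant in both groups, although none was called. The 10 epithelial markers summed to 2931, 1406, 2218 and 1159 FPKM in saline and to 946, 1701 and 2920 FPKM in loxP/loxP. In loxP/loxP 3 this was above the sum of the EC markers (2368 FPKM). The part that leukocytes and these other cells have in the results below was not tested.

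**Figure D1:**
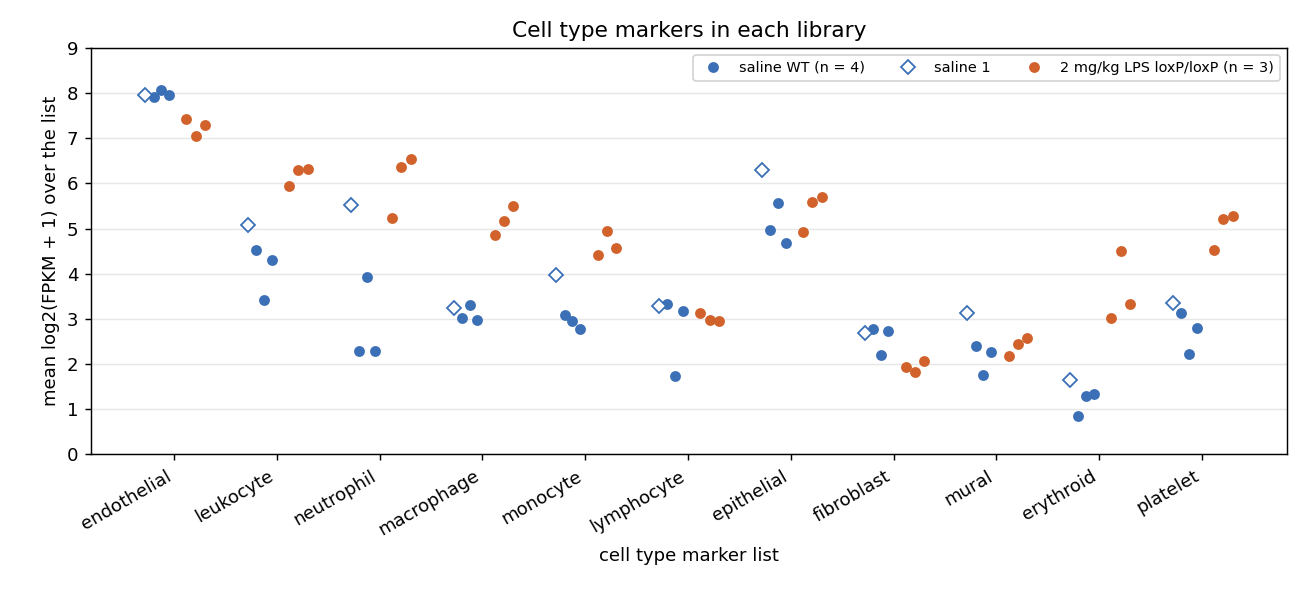
Mean log2(FPKM + 1) over each list of cell type markers (y axis), 1 point per library, for saline WT and 2 mg/kg LPS loxP/loxP ECs, with saline 1 as an open diamond. Endothelial means lie between 7.92 and 8.07 in saline and between 7.05 and 7.43 in loxP/loxP, and neutrophil means of saline 1 (5.53) and loxP/loxP 1 (5.24) overlap.

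Over all 15295 genes tested, 1167 (7.63%) were called higher in loxP/loxP ECs and 571 (3.73%) were called lower. Without saline 1 the counts were 1445 and 703. Of all calls 67.1% were thus higher. Scaling the libraries on the 10 EC markers instead moved the median of all genes to a log2 fold change of 0.59 and gave 3702 higher and 158 lower (95.9% higher), and quantile normalization gave 962 and 744 (56.4%). Where the direction of a gene list below changed with the scaling, the median under that scaling stands in the same sentence. Counts of gene lists under another scaling or without a library were added after seeing the data. No loxP/loxP library overlapped any saline library in 6080 genes (39.8%), and in 1673 of the 1738 genes called. Large differences were mostly rises. A difference of at least 2 on the log2 scale was found in 326 genes called higher and in 50 called lower, and one of at least 4 in 38 and 0. Every difference is on the log2(FPKM + 1) scale, which understates the change of genes with low values. The lists of genes described below were most often called higher among acute phase proteins, CC chemokines, adhesion molecules and feedback regulators of TLR signaling, and most often lower among markers of aerocytes and general capillary ECs.

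**Figure D2:**
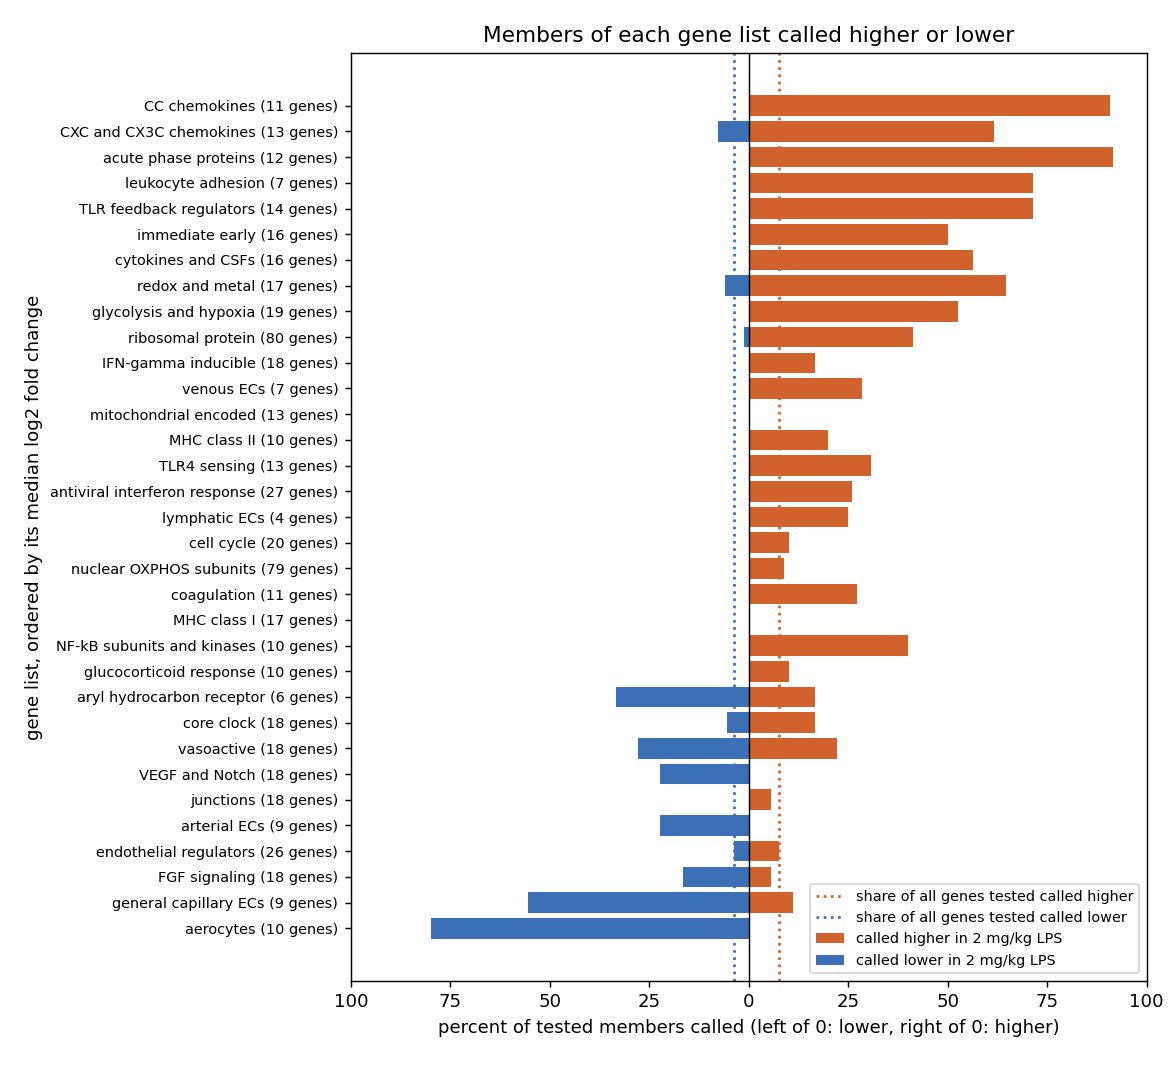
Percent of tested members of each gene list called higher (bars to the right of 0) or lower (bars to the left) in 2 mg/kg LPS loxP/loxP (n = 3) against saline WT ECs (n = 4), with dotted lines at the shares of all genes tested. CC chemokines have 10 of 11 members called higher and aerocyte markers 8 of 10 called lower.

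Acute phase and antimicrobial genes held the largest rises. Saa3 (mm10 chr7:46711998-46715700, minus strand, protein coding), a serum amyloid A made outside the liver, was at 0.343, 0.175, 0.0854 and 0.294 FPKM in saline and at 268, 376 and 126 FPKM in loxP/loxP (log2 fold change 7.58 ± 0.33, adjusted p = 0.000166). Lcn2, whose protein lipocalin-2 withholds iron from bacteria by binding siderophores, was at 21.2, 3.71, 7.49 and 3.55 FPKM in saline and 1697, 1628 and 631 FPKM in loxP/loxP (log2 fold change 7.24 ± 0.61, adjusted p = 0.000538). In both genes loxP/loxP 3 was the lowest of the treated libraries and still well above every saline library. Of 12 tested members of the list, 11 were called higher (median log2 fold change 2.26), beside 7.63% of all genes. Haptoglobin (Hp), which binds free hemoglobin, was at 92.96, 10.99, 17.99 and 7.55 FPKM in saline and 224, 389.5 and 298 FPKM in loxP/loxP. Orm1, an acid glycoprotein, was at 0.288, 0.177, 0.144 and 0 FPKM and 16.7, 36.4 and 17.7 FPKM. Its saline libraries held 0 to 3 reads and its loxP/loxP libraries 228 to 473. Lrg1, a secreted glycoprotein known to act on vessels, rose by 2.54 ± 0.53 and the ceruloplasmin gene Cp by 1.39 ± 0.30. Saa2 was the member not called, at 0.722, 4.599 and 0.0861 FPKM in loxP/loxP. The antimicrobial genes Wfdc17 and Wfdc21, named for their largest rises among all genes, rose by 5.23 ± 0.71 and 4.80 ± 0.45.

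The bases before the start of Saa3 are printed because Saa3 has the largest rise of the list. The window holds the 250 bases before the start in RefSeq (GRCm38.p6, chr7:46715677-46715926, minus strand), with the kB core GGNNTTNCC, read on both strands, in capitals. The match begins at position -187, where -1 is the base before the start.
Saa3: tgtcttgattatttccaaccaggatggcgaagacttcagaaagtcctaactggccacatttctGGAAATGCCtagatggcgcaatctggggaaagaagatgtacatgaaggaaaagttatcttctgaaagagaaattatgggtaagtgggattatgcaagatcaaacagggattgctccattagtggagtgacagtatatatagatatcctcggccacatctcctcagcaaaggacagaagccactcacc
The same letters stood in the windows of 5 of the 10 tested acute phase genes that had one, all of which were called higher, and in 13.5% of the 32851 promoter windows. Here and below, a gene was counted if any of its windows held the letters, while the share is over single windows. Counts of genes and shares of windows are therefore not in the same unit. A match of these letters is a description of the sequence and does not show a site that is bound.

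Of 11 tested CC chemokines, 10 were called higher (median 3.51), and Ccl8 was not. Ccl3, a ligand of CCR1, was at 9.63, 2.21, 2.76 and 1.602 FPKM in saline and 285, 342 and 806 FPKM in loxP/loxP (log2 fold change 6.65 ± 0.54, adjusted p = 0.000479). Ccl4, its neighbor in function, was at 7.91, 2.08, 0.675 and 0.775 FPKM in saline and 90.3, 121 and 207 FPKM in loxP/loxP (log2 fold change 5.46 ± 0.59, adjusted p = 0.00126). For both, saline 1 was the highest saline library and loxP/loxP 3 the highest of all. The monocyte attractant Ccl2 was at 0, 0.241, 0.147 and 0.0449 FPKM, from 0 to 6 reads, in saline and at 26.4, 36.04 and 17.6 FPKM in loxP/loxP (log2 fold change 4.59 ± 0.23, adjusted p = 0.000224). Ccl7 and Ccl12, which act on the same receptor CCR2, had at most 4 reads and 1 read in any saline library and were at 9.57, 17.7 and 13.3 FPKM and 11.3, 14.01 and 7.47 FPKM in loxP/loxP. The groups did not overlap in any of these genes.

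Of 13 tested CXC and CX3C chemokines, 8 were called higher and 1 lower (median 2.79). Cxcl2, a ligand of the neutrophil receptor CXCR2, was at 129, 0.752, 5.54 and 0.594 FPKM in saline and 229, 336 and 572 FPKM in loxP/loxP (log2 fold change 5.67 ± 1.45, adjusted p = 0.0247). Saline 1 alone of the saline libraries was above 10 FPKM here. Cxcl1 and Cxcl3, further CXCR2 ligands, were called higher as well, with loxP/loxP values of 8.24, 12.6 and 4.74 FPKM and 17.2, 19.2 and 64.7 FPKM against at most 1.39 and 2.24 FPKM in saline. Cxcl9 and Cxcl10, ligands of the T cell receptor CXCR3 that interferons induce, stood at 20.9, 15.6 and 2.96 FPKM and 75.7, 59.9 and 8.35 FPKM in loxP/loxP, each lowest in library 3, and under 1 FPKM in saline. The B cell attractant Cxcl13 was at 9.38, 5.55 and 9.71 FPKM and held 0 to 3 reads in saline. Cxcl14 was the member called lower (log2 fold change -2.35 ± 0.24, adjusted p = 0.000978), from 31.3, 34.6, 17.9 and 31.4 FPKM in saline to 4.42, 5.85 and 3.89 FPKM. Cxcl12, the ligand of CXCR4, was at 56.5, 97.2, 64.1 and 90.1 FPKM in saline and 48.6, 35.4 and 76.1 FPKM in loxP/loxP (adjusted p = 0.193). Cx3cl1, whose product fractalkine is anchored to the EC surface, was at 19.4, 29.9, 39.3 and 30.8 FPKM and 17.8, 13.7 and 11.6 FPKM, a difference of -0.99 that became a call without saline 1 (-1.17). Mean log2(FPKM + 1) of the leukocyte markers, at 5.94, 6.29 and 6.32 in loxP/loxP against 5.08, 4.53, 3.41 and 4.30 in saline, moved in the same direction as the chemokines, and its part in their rise was not tested.

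Windows before Cxcl2 (chr5:90903649-90903898, plus strand) and Ccl9 (chr11:83578637-83578886, minus strand) are printed as those of the chemokine called with the largest change in each family that holds the kB core, again in capitals. Cxcl2 holds it at positions -96 and -77, and Ccl9, a ligand of CCR1, at -35.
Cxcl2: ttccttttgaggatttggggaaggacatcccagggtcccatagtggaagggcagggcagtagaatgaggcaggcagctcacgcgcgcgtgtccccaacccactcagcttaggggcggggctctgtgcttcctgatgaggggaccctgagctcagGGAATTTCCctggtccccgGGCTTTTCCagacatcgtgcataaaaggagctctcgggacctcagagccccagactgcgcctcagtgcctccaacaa
Ccl9: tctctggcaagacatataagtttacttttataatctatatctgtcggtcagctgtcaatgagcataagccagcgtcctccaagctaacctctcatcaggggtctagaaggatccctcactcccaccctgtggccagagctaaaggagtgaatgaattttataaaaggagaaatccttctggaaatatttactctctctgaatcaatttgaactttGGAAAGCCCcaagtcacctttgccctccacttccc
Of the tested genes with a window, 5 of 11 CXC or CX3C chemokines and 1 of 7 CC chemokines held the core. Ccl9 was at 13.4, 1.25, 1.72 and 1.11 FPKM in saline and 18.1, 27.7 and 47.1 FPKM in loxP/loxP (log2 fold change 3.01 ± 0.69, adjusted p = 0.0167).

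Cytokines and colony-stimulating factors were the next group, with 9 of 16 tested members called higher and 0 lower (median 1.63), or 14 with scaling on the EC markers. Without loxP/loxP 2, 6 of 13 tested members were called higher and 1 lower (median 2.64). Tnf was at 0.728, 0.474, 0.442 and 0.343 FPKM in saline and 28.6, 38.4 and 45.2 FPKM in loxP/loxP (log2 fold change 4.66 ± 0.17, adjusted p = 0.000137). Il1a, an interleukin-1 released by injured cells, was at 1.44, 2.2, 1.75 and 1.66 FPKM in saline and 42.2, 55.04 and 89.7 FPKM in loxP/loxP (log2 fold change 4.46 ± 0.24, adjusted p = 0.000224). Neither gene had a saline library near the treated ones. Il1b differed in this, since saline 1 was at 261 FPKM and the other saline libraries were at 4.51, 27.7 and 5.28 FPKM. Its loxP/loxP values were 285, 517 and 569.8 FPKM (log2 fold change 4.28 ± 1.27, adjusted p = 0.0404). Il1rn, which encodes the antagonist of the interleukin-1 receptor, was at 2.92, 0.429, 0.483 and 0.148 FPKM and 47.1, 65.3 and 115 FPKM (log2 fold change 5.35 ± 0.46, adjusted p = 0.000591). Il6 was low in both groups, with 0 to 4 reads in saline and 1.22, 1.75 and 0.871 FPKM in loxP/loxP (log2 fold change 1.09 ± 0.17, adjusted p = 0.00398). Il10, an anti-inflammatory cytokine, was at 0.569, 0, 0 and 0.351 FPKM and 0.954, 1.41 and 0.745 FPKM, and its difference of 0.74 was under the limit for a call. Csf3, which drives neutrophil production, held 0 to 4 reads in saline and was at 12.4, 19.3 and 18.3 FPKM in loxP/loxP (log2 fold change 4.06 ± 0.17, adjusted p = 0.000166). Csf2 was at 11.4, 16.8 and 3.32 FPKM in loxP/loxP and at most 0.4 FPKM in saline.

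**Figure D3:**
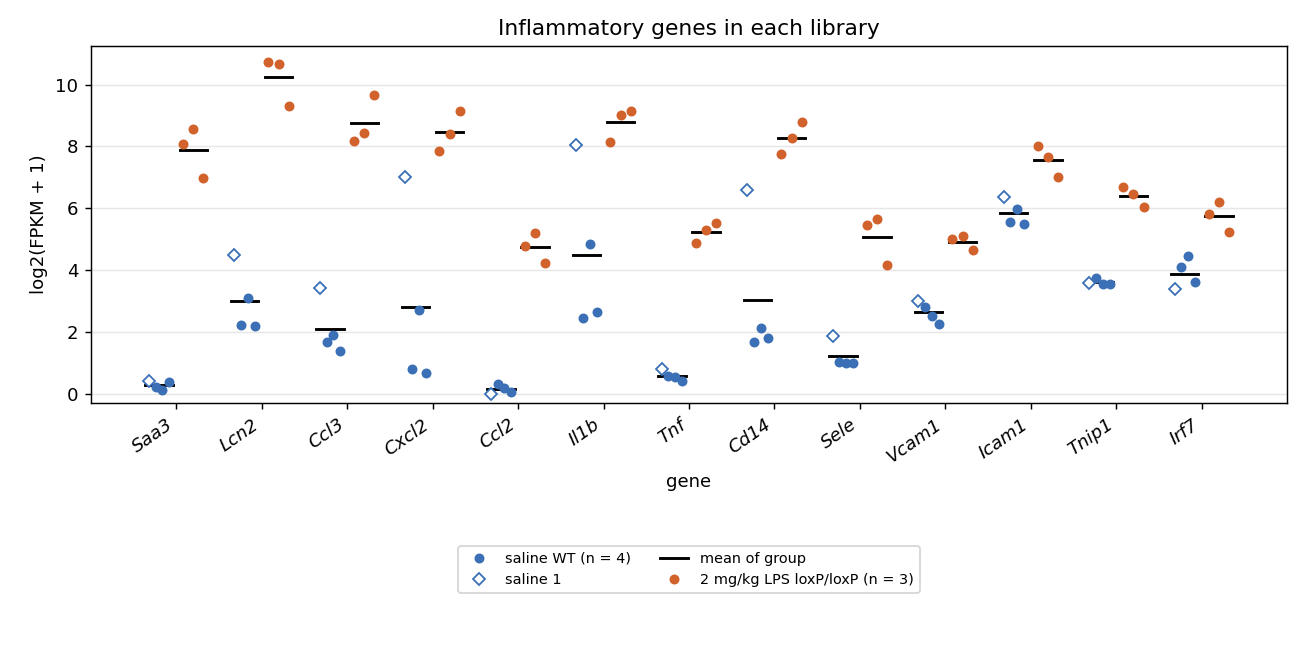
log2(FPKM + 1) of 13 inflammatory genes (x axis) in each library of saline WT (n = 4, saline 1 as an open diamond) and 2 mg/kg LPS loxP/loxP ECs (n = 3), with black bars at group means. Saline 1 is the highest saline library for Cxcl2 and Il1b, while Saa3 is under 1 FPKM in every saline library.

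Adhesion molecules by which leukocytes roll and arrest on ECs rose in 5 of 7 tested members (median 2.09). Sele, or E-selectin, which activated ECs make, was at 2.64, 1.04, 0.975 and 1.001 FPKM in saline and 42.99, 48.9 and 16.8 FPKM in loxP/loxP (log2 fold change 3.87 ± 0.39, adjusted p = 0.000978). Selp, or P-selectin, was at 7.08, 2.75, 0.782 and 1.55 FPKM and 40.4, 41.8 and 14.97 FPKM (log2 fold change 3.15 ± 0.56, adjusted p = 0.00657). Vcam1, which binds the integrin VLA-4 of monocytes and lymphocytes, was at 6.94, 5.97, 4.77 and 3.79 FPKM and 30.9, 33.4 and 23.9 FPKM (log2 fold change 2.27 ± 0.20, adjusted p = 0.000617). Icam1, a ligand of beta-2 integrins, was at 80.6, 45.97, 61.6 and 44.3 FPKM and 257, 199.8 and 128 FPKM (log2 fold change 1.71 ± 0.29, adjusted p = 0.00578). The groups were apart in these 4 genes, and loxP/loxP 3 was the lowest treated library in each. Selplg, the selectin ligand of leukocytes, was called higher too (2.09). Icam2, which ECs carry at rest, was at 238, 209, 283 and 222 FPKM in saline and 231, 169.9 and 220.2 FPKM in loxP/loxP (adjusted p = 0.42).

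Among coagulation genes 3 of 11 tested members were called higher and 0 lower (median 0.54), or 5 without saline 1 and 6 with scaling on the EC markers. Procr, the endothelial receptor of protein C, was at 5.505, 2.09, 1.37 and 2.79 FPKM and 18.6, 25.8 and 14.9 FPKM (log2 fold change 2.47 ± 0.34, adjusted p = 0.00281), and Anxa2, a surface receptor of plasminogen, rose by 1.63 ± 0.32. Thbd, the thrombin receptor thrombomodulin, was at 618, 526, 587 and 625 FPKM and 238, 150.5 and 553 FPKM, where loxP/loxP 3 overlapped saline (adjusted p = 0.076). The coagulation factor gene F10, which is outside this list, was among the 15 largest rises that met the rule for naming. It rose from 3.68, 0.619, 0.448 and 0.412 FPKM to 36.7, 53.7 and 54.8 FPKM (4.61).

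In the pathway that senses LPS, 4 of 13 tested genes were called higher and 0 lower (median 0.68). The count was 2 without loxP/loxP 2 and after quantile normalization, and 8 with scaling on the EC markers. Cd14, the co-receptor that hands LPS to TLR4, was at 94.3, 2.18, 3.399 and 2.47 FPKM in saline and 213, 312 and 442 FPKM in loxP/loxP (log2 fold change 5.23 ± 1.16, adjusted p = 0.0148). Without saline 1 the saline values are all under 4 FPKM. Tlr4 itself was at 2.804, 3.38, 4.12 and 3.03 FPKM and 6.43, 6.18 and 11.6 FPKM (log2 fold change 1.02 ± 0.22, adjusted p = 0.0131). That call was lost without saline 1 (0.97). Tlr2, a receptor of bacterial lipoproteins, was at 8.88, 3.97, 4.56 and 2.61 FPKM and 32.9, 35.99 and 72.98 FPKM (log2 fold change 3.01 ± 0.39, adjusted p = 0.00215), and the adaptor gene Myd88 rose by 1.12 ± 0.17. Irak1, Irak4 and Traf6 of the downstream cascade had differences of 0.21, 0.16 and 0.01, with adjusted p of 0.171, 0.403 and 0.989. The formyl peptide receptor gene Fpr2, of the 15 largest rises, was at 3.57, 2.05, 2.36 and 0.987 FPKM in saline and 66.7, 93.4 and 89.1 FPKM in loxP/loxP (4.74).

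Of 10 genes listed for NF-kB subunits and kinases, 4 were called higher and 0 lower (median 0.18), namely Nfkb2, Relb, Ikbke and Birc3. Birc3 is on the list but encodes neither a subunit nor a kinase. Leaving out any single library other than saline 1 gave 3, and the median lay between 0.08 (without loxP/loxP 3) and 0.28 (without loxP/loxP 1). Nfkb2 and Relb, the subunits of the noncanonical pathway, were called higher (log2 fold change 1.74 ± 0.14, adjusted p = 0.000441 for Nfkb2 and log2 fold change 1.25 ± 0.13, adjusted p = 0.0012 for Relb). Values of Nfkb2 were 15.2, 18.5, 13.8 and 17.4 FPKM in saline and 56.1, 64.4 and 49.6 FPKM in loxP/loxP. The canonical subunits Rela and Nfkb1 were at 61.01, 57.7 and 47.1 FPKM and 17.1, 16.1 and 21.1 FPKM in loxP/loxP, against 63.04, 53.1, 55 and 51.99 FPKM and 13.9, 19.1, 17.7 and 18 FPKM in saline, so that the groups overlapped. Ikbke, an IKK-related kinase, was at 1.099, 1.11, 0.457 and 0.998 FPKM in saline and 18.2, 25.3 and 32.1 FPKM in loxP/loxP (log2 fold change 3.76 ± 0.22, adjusted p = 0.000225).

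Regulators that restrain TLR signaling were called higher in 10 of 14 tested cases (median 1.93), and in 13 of 14 without saline 1. Leaving out any other single library gave 8 of 14. Tnip1, a partner of A20, was at 10.9, 12.4, 10.8 and 10.8 FPKM in saline and 102, 87.8 and 65.3 FPKM in loxP/loxP (log2 fold change 2.79 ± 0.16, adjusted p = 0.000224). Irak3, a kinase-dead member of its family that blocks signaling, was at 3.001, 3.98, 3.79 and 3.67 FPKM and 22.8, 25.5 and 37.9 FPKM (log2 fold change 2.66 ± 0.18, adjusted p = 0.000317). Tnfaip3, which encodes A20, was at 19.5, 4.95, 4.31 and 5.02 FPKM and 33.8, 39.4 and 62.3 FPKM (log2 fold change 2.50 ± 0.48, adjusted p = 0.00931). Acod1, the enzyme that makes itaconate, was at 18.7, 0.105, 1.103 and 0.117 FPKM and 72.2, 106 and 84.8 FPKM (log2 fold change 5.03 ± 0.96, adjusted p = 0.0087). The saline libraries lay close together in Tnip1, whereas in Tnfaip3 and Acod1 saline 1 lay far above its group. Nfkbia, which encodes the inhibitor IkB-alpha, was at 684, 149, 134 and 133 FPKM in saline and 390.1, 394 and 348 FPKM in loxP/loxP (log2 fold change 0.87, adjusted p = 0.287), and without saline 1 it was called higher (1.44). Socs3, which dampens cytokine receptors, was at 129.5, 20.2, 23.8 and 20.5 FPKM and 115, 172 and 138 FPKM, so that saline 1 overlapped the treated group (log2 fold change 2.01 ± 0.63, adjusted p = 0.0481).

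Genes of the antiviral interferon response were called in 7 of 27 cases, all higher (median 0.68), and in 16 of 27 with scaling on the EC markers. Irf7, which amplifies type I interferon expression, was at 9.41, 16.1, 20.9 and 11.3 FPKM in saline and 55.8, 72.1 and 36.5 FPKM in loxP/loxP (log2 fold change 1.86 ± 0.31, adjusted p = 0.0052). Zbp1, a sensor of nucleic acids, was at 2.58, 5.56, 3.75 and 2.58 FPKM and 22.5, 18.1 and 9.398 FPKM (log2 fold change 1.90 ± 0.32, adjusted p = 0.00567). The small interferon-induced gene Ifi27l2a was at 54.4, 40.4, 24.9 and 27.2 FPKM and 114, 151 and 107 FPKM (log2 fold change 1.78 ± 0.28, adjusted p = 0.0042). These groups were apart, with loxP/loxP 3 lowest each time. Isg15, a ubiquitin-like modifier, was at 18.5, 35.2, 47.2 and 26.7 FPKM in saline and 104, 119 and 46.2 FPKM in loxP/loxP (log2 fold change 1.43 ± 0.40, adjusted p = 0.0331), and there loxP/loxP 3 fell under saline 3. Oas1a, a sensor of double-stranded RNA, rose by 1.26 ± 0.26. The count in the list was 4, 3 and 11 without loxP/loxP 1, 2 and 3 in turn.

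The window before Isg15 (chr4:156200819-156201068, minus strand) is printed for the interferon-stimulated response element (ISRE), whose core GAAANNGAA it holds as 3 overlapping matches at -78, -72 and -66 (both strands searched). The capitals mark the stretch they cover.
Isg15: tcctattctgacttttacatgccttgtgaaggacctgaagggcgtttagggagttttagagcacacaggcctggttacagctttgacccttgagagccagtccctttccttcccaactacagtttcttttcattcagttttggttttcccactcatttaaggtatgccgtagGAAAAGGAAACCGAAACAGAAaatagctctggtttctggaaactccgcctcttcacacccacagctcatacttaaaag
The core stood in 10 of 19 antiviral genes with a window, in 4 of the 5 of these that were called, and in 7.13% of all windows.

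Among 18 IFN-gamma inducible genes 3 were called higher (median 0.85), or 6 without loxP/loxP 3 (median 1.23) and 3 without loxP/loxP 1 (median 0.45). Cd274, which encodes the checkpoint ligand PD-L1, was at 5.88, 11.5, 10.5 and 7.24 FPKM in saline and 60.5, 52.4 and 59.8 FPKM in loxP/loxP (log2 fold change 2.62 ± 0.21, adjusted p = 0.000479). The others were Cxcl9, above, and Socs1. Gbp2, a guanylate-binding GTPase, was at 22.3, 60.8, 59.5 and 43.2 FPKM and 209, 91.5 and 33.9 FPKM, where loxP/loxP 3 lay within the saline range. None of 17 MHC class I presentation genes was called (median 0.51), while 2 of 10 MHC class II genes were (median 0.71). With scaling on the EC markers the counts were 13 of 17 and 6 of 10, and 11 of 18 for the IFN-gamma inducible genes. The number of class II genes called higher was 1 without saline 1, 5 without saline 2 and 0 without any of saline 3, saline 4 and the loxP/loxP libraries, and 1 was called lower without saline 3. The class II genes called were the invariant chain Cd74, at 383, 459, 176 and 323 FPKM in saline and 981, 679 and 687 FPKM in loxP/loxP (log2 fold change 1.28 ± 0.35, adjusted p = 0.0297), and H2-DMb1.

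Markers of lung capillary ECs fell. Of 10 aerocyte genes, which mark the thin capillary ECs that cover the alveoli, 8 were called lower and 0 higher (median -1.59), beside 3.73% of all genes. When the EC markers set the scale, 5 of the 10 were called lower (median -0.87, beside 0.59 for all genes), and 5 also without loxP/loxP 2. Ednrb, the endothelin receptor B, was at 47.4, 58.4, 87.8 and 59.99 FPKM in saline and 10.1, 7.67 and 10.8 FPKM in loxP/loxP (log2 fold change -2.60 ± 0.21, adjusted p = 0.000479). Fibin was at 59.02, 56.1, 93.9 and 66.3 FPKM and 10.2, 7.899 and 13.3 FPKM (log2 fold change -2.60 ± 0.22, adjusted p = 0.000572). Emp2, a tetraspan membrane protein, was at 97.02, 120.4, 146 and 112 FPKM and 24.7, 25.5 and 24.9 FPKM (log2 fold change -2.19 ± 0.15, adjusted p = 0.000311). The groups lay far apart in these genes, and the loxP/loxP values of Emp2 were nearly equal. The transcription factor gene Tbx2 and the cytochrome gene Cyp4b1 fell by 1.72 ± 0.22 and 1.74 ± 0.25. Car4, a carbonic anhydrase of the capillary surface, was at 157, 155, 266 and 168 FPKM in saline and 70.9, 50.9 and 142 FPKM in loxP/loxP (log2 fold change -1.17 ± 0.36, adjusted p = 0.0451). Apln and Prx, at log2 fold changes of -0.66 and 0.02, were not called.

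Of 9 general capillary genes, 5 were called lower and 1 higher (median -1.15), and with scaling on the EC markers 2 and 1 (median -0.42). Aplnr (mm10 chr2:85136225-85139923, plus strand, protein coding), the receptor of apelin and the largest fall among all genes named by rule, was at 80.1, 121, 138 and 121 FPKM in saline and 7.99, 4.26 and 9.83 FPKM in loxP/loxP (log2 fold change -3.83 ± 0.28, adjusted p = 0.00036). Hmcn1, an extracellular matrix protein, was at 16.1, 25.02, 17.5 and 28.04 FPKM and 2.198, 1.12 and 5.43 FPKM (log2 fold change -2.65 ± 0.37, adjusted p = 0.00295). Kit, the receptor of stem cell factor, was at 76.1, 99.4, 102 and 97.8 FPKM and 34.9, 21.7 and 43.8 FPKM (log2 fold change -1.51 ± 0.23, adjusted p = 0.00408). Gpihbp1, which holds lipoprotein lipase on capillaries, was at 374, 173, 209 and 192 FPKM and 139, 81.5 and 92.4 FPKM (log2 fold change -1.15 ± 0.31, adjusted p = 0.0282), and lost its call without saline 1 (-0.90). Lpl, the lipase itself, rose from 72.8, 26.6, 27.7 and 28.3 FPKM to 187, 137 and 82.9 FPKM (log2 fold change 1.84 ± 0.41, adjusted p = 0.0154).

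Markers of larger vessels were mixed. Among 9 arterial genes the ephrin gene Efnb2 (-1.20 ± 0.17) and the Notch target Hey1 (-2.02 ± 0.24) were called lower and 0 higher (median -0.33, or 0.39 with scaling on the EC markers). Among 7 venous genes 2 were called higher, Vcam1 and Bst1 (2.38 ± 0.32), with a median of 0.84 (5 with scaling on the EC markers). Of 4 tested lymphatic genes, Mmrn1 was called higher (1.76 ± 0.35, median of the list 0.57), and 2 of the 4 were called without saline 1 (median 0.97).

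**Figure D4:**
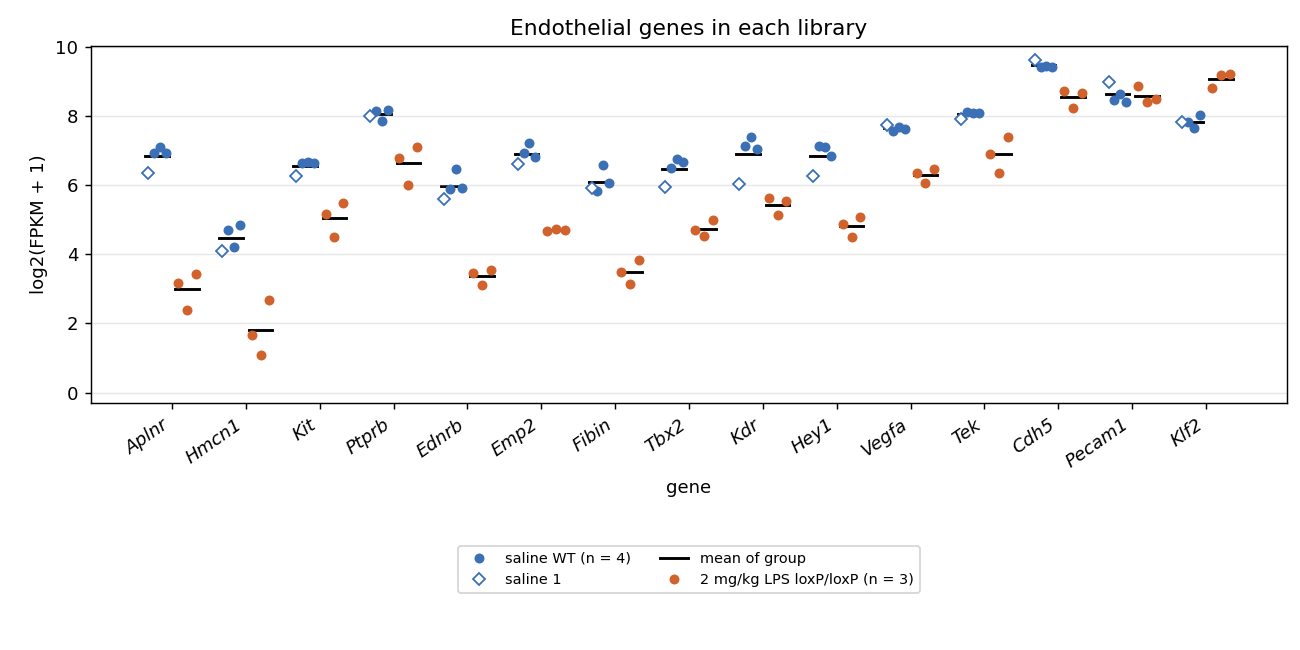
log2(FPKM + 1) of 15 endothelial genes (x axis) in each library of saline WT (n = 4, saline 1 as an open diamond) and 2 mg/kg LPS loxP/loxP ECs (n = 3), with black bars at group means. Aplnr, Ednrb, Emp2 and Fibin are apart by over 2 log2 units between the means, Pecam1 overlaps and Klf2 is higher in loxP/loxP.

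In VEGF and Notch signaling 4 of 18 genes were called lower and 0 higher (median -0.17), while scaling on the EC markers gave 1 lower and 4 higher (median 0.52). The ligand gene Vegfa was at 213, 189, 203 and 195 FPKM in saline and 80.3, 66.2 and 87.8 FPKM in loxP/loxP (log2 fold change -1.35 ± 0.14, adjusted p = 0.000968). Its receptor gene Kdr, or VEGFR2, was at 63.9, 138, 168 and 132 FPKM and 48.8, 34.1 and 45.3 FPKM (log2 fold change -1.46 ± 0.32, adjusted p = 0.0144), and the co-receptor gene Nrp1 fell by 1.22 ± 0.15. Hey1 was the fourth. Among 26 tested EC regulators 2 were called higher and 1 lower (median -0.35), or 7 and 0 with that scaling (median 0.37) and 0 and 5 after quantile normalization (median -0.62). The main shares are close to those of all genes (7.63% and 3.73%), and without saline 1 the counts were 5 and 1. They were 1 and 1 without saline 2, saline 4 or loxP/loxP 1, and 1 and 0 without loxP/loxP 2. The 3 genes called are given as single genes. Klf2, the factor that laminar flow induces, was at 224, 225, 201 and 262 FPKM and 449.9, 576 and 591 FPKM (log2 fold change 1.23 ± 0.18, adjusted p = 0.00316). Nos3, the endothelial nitric oxide synthase, was at 30.8, 12.3, 10.99 and 12.6 FPKM and 32.9, 43.7 and 27.2 FPKM (log2 fold change 1.11 ± 0.35, adjusted p = 0.049), and saline 1 overlapped loxP/loxP. Tek, the receptor of angiopoietins, was at 242, 277, 268 and 269.7 FPKM and 119.5, 81.4 and 168 FPKM (log2 fold change -1.16 ± 0.24, adjusted p = 0.0112).

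Of 18 junction genes, none was called lower and Marveld2, a tight junction protein, was called higher (log2 fold change 1.52 ± 0.13, adjusted p = 0.000625), with a list median of -0.25 that became 0.44 under scaling on the EC markers. These shares are not above those of all genes tested (7.63% higher and 3.73% lower), and Marveld2 is given as a single gene. After quantile normalization 4 of the 18 were called lower, and 1 with total reads. The groups were apart and lower in 7 of the 18, beside 18.6% of all genes tested. Tjp1, or ZO-1, was at 79.6, 112, 107 and 106 FPKM in saline and 55.3, 43.5 and 56.3 FPKM in loxP/loxP (-0.95), and without saline 1 its difference of -1.06 was called. Cldn5, the main claudin of ECs, was at 2802, 949, 1354 and 995 FPKM and 1003, 858 and 777 FPKM, where saline 1 stood far above the rest (adjusted p = 0.276).

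Of 18 vasoactive genes, 4 were called higher and 5 lower (median -0.09), or 7 and 2 when scaled on the EC markers (median 0.58). Without loxP/loxP 1 or 2 the lower count was 3, and the median was 0.20 without saline 1 and 0.06 without loxP/loxP 2. Receptors made up the falls, namely Ednrb, Ednra, the angiotensin receptor Agtr1a and the natriuretic peptide receptors Npr1 and Npr3. Npr1 was at 67.5, 73.2, 78.5 and 81.7 FPKM in saline and 32.9, 24.97 and 32.3 FPKM in loxP/loxP (log2 fold change -1.30 ± 0.13, adjusted p = 0.00103). Npr3, which clears natriuretic peptides, was at 159, 22.7, 34.9 and 19.01 FPKM and 1.83, 1.44 and 7.53 FPKM (log2 fold change -3.38 ± 0.77, adjusted p = 0.016). Among the rises were the enzyme genes Nos3, Ptgs2 and Ptges. Ptgs2, or COX-2, was at 11.9, 1.87, 2.82 and 1.97 FPKM and 19.3, 31.5 and 37.7 FPKM (log2 fold change 2.70 ± 0.54, adjusted p = 0.01).

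Fgfr1 (mm10 chr8:25513654-25575718, plus strand), the gene whose EC deletion the study examined and which is intact but floxed in these mice, was at 5.44, 2.97, 2.801 and 3.19 FPKM in saline and 2.801, 2.85 and 2.55 FPKM in loxP/loxP. Saline 1 was the highest library and the other 6 lay between 2.55 and 3.19 FPKM. The groups overlapped, with a difference of -0.27 (two-sided exact permutation p = 0.171, where 3 against 4 libraries cannot go below 0.0571). In the FGF list 3 of 18 tested genes were called lower and 1 higher (median -0.39), and 1 and 2 with scaling on the EC markers (median 0.22). The receptor gene Fgfr4 was at 1.81, 4.46, 2.39 and 5.14 FPKM in saline and 0.289, 0.101 and 0.398 FPKM in loxP/loxP (log2 fold change -1.75 ± 0.29, adjusted p = 0.0051). The ligand gene Fgf1 was at 28.99, 25.4, 29.8 and 25.4 FPKM and 9.79, 7.01 and 13.8 FPKM (log2 fold change -1.38 ± 0.20, adjusted p = 0.00318), and Plcg1, a phospholipase downstream of the receptors, at 51.5, 46.5, 50.2 and 50.6 FPKM and 22.6, 17.3 and 23.97 FPKM (log2 fold change -1.20 ± 0.13, adjusted p = 0.0012). All 3 had groups apart. Dusp6, an ERK phosphatase that is itself induced by ERK, was the rise (log2 fold change 1.66 ± 0.20, adjusted p = 0.00189). Fgfr2 had a difference under the limit (-0.82) and was called lower without saline 1 (-1.03).

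Rock2, the kinase whose activity the study followed, was at 19.4, 12.6, 14.7 and 12.9 FPKM in saline and 15.1, 12.7 and 13.3 FPKM in loxP/loxP (exact permutation p = 0.857). Rock1 was at 19.2, 16.3, 15.6 and 15.2 FPKM and 14.2, 12.6 and 17.1 FPKM (exact permutation p = 0.286). Both overlapped between groups. The ERM gene Msn, or moesin, was at 221, 173, 183 and 167 FPKM and 341, 350.3 and 289.8 FPKM, apart between groups but under the limit (log2 fold change 0.81 ± 0.16, adjusted p = 0.01). Ezr, or ezrin, had a difference of 0.99, which reached 1.18 and was called without saline 1, and Rdx, or radixin, one of -0.43 (adjusted p = 0.205). Rhoa was at 76.1, 49.2, 57.1 and 49.9 FPKM and 81.3, 83.4 and 80.2 FPKM (adjusted p = 0.0539), and Ppp1r12a, the myosin phosphatase subunit that ROCK inhibits, at 27.3, 20.97, 20.2 and 19.3 FPKM and 14.5, 15.01 and 19.7 FPKM (adjusted p = 0.096). Over the 17 genes that the study names, 6 were called higher and 0 lower (3 of 15 tested without loxP/loxP 2, and 10 of 17 with scaling on the EC markers), and these were Tnf, Vcam1, Il6, Icam1, Ptprc and Il1b.

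Genes of glycolysis and hypoxia were called higher in 10 of 19 cases (median 1.13), and in 17 with scaling on the EC markers. Eno1, or enolase, was at 23.9, 17.8, 19.3 and 19.7 FPKM in saline and 78.4, 104 and 71.9 FPKM in loxP/loxP (log2 fold change 2.01 ± 0.16, adjusted p = 0.000452). Hif1a, the oxygen-regulated transcription factor subunit, was at 14.4, 11.01, 10.1 and 10.6 FPKM and 56.8, 61.9 and 23.8 FPKM (log2 fold change 1.85 ± 0.32, adjusted p = 0.00605), lowest of the treated in library 3. Redox and metal genes were called higher in 11 of 17 tested cases and lower in 1 (median 1.48). Hmox1, or heme oxygenase-1, was at 12.6, 6.997, 7.79 and 8.03 FPKM and 57.5, 77.7 and 95.9 FPKM (log2 fold change 2.99 ± 0.23, adjusted p = 0.000412), and Sod2, the mitochondrial superoxide dismutase, at 4.71, 4.14, 5.18 and 4.64 FPKM and 25.8, 31.7 and 26.1 FPKM (log2 fold change 2.35 ± 0.12, adjusted p = 0.000224). Sod3, the extracellular enzyme, was the member that fell, from 30.01, 27.5, 19.9 and 26.6 FPKM to 6.06, 6.99 and 8.25 FPKM (log2 fold change -1.73 ± 0.16, adjusted p = 0.000771). Cybb, a subunit of the phagocyte NADPH oxidase, rose by 2.79 ± 0.31, and the leukocyte markers above rose in the same libraries.

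Immediate early genes were called higher in 8 of 16 cases (median 1.79) and in 12 of 15 tested without saline 1, and in 13 of 16 with scaling on the EC markers. Leaving out saline 2, 3 or 4 or loxP/loxP 1 or 2 gave 6 of 16, and leaving out loxP/loxP 3 gave 7 of 15. Nr4a1, an orphan nuclear receptor, was at 26.2, 8.56, 10.8 and 6.85 FPKM in saline and 68.4, 130.4 and 107 FPKM in loxP/loxP (log2 fold change 3.00 ± 0.43, adjusted p = 0.00313). Ribosomal protein genes were called higher in 33 of 80 tested cases and lower in 1 (median 0.93). This count depended on the scaling and on single libraries, with 7 of 80 higher after quantile normalization, 23 with total reads, 75 with scaling on the EC markers, and 20, 14 and 50 without loxP/loxP 1, 2 and 3 in turn. They took 2.27%, 1.87%, 1.81% and 1.83% of the reads in saline 1 to 4 and 3.67%, 4.27% and 2.71% in loxP/loxP 1 to 3. Nuclear genes of oxidative phosphorylation were called higher in 7 of 79 (median 0.56), a share near the 7.63% of all genes, and none of 13 mitochondrially encoded genes was called (median 0.77). Scaling on the EC markers gave 60 of 79 and 11 of 13, and quantile normalization 3 and 1. Without saline 1 the counts were 11 and 3, and without loxP/loxP 3 the first was 14. In the cell cycle list 2 of 20 tested genes rose (median 0.57), a share near that of all genes, and 12 of 20 with scaling on the EC markers. Groups were apart and higher in 17 of the 20, beside 21.1% of all genes, mostly with changes under the limit. The 2 were the proliferation marker Mki67, which rose from 0.452 ± 0.0957 to 2.29 ± 0.676 FPKM (mean ± SD, n = 4 and 3) and the replication helicase gene Mcm5, which rose from 2.29 ± 0.291 to 8.04 ± 1.24 FPKM, both with groups apart. Of 10 glucocorticoid-responsive genes, Fkbp5, a chaperone of the receptor, was called higher (median of the list 0.12, or -0.05 after quantile normalization), at 14.9, 1.04, 0.729 and 1.12 FPKM and 22.3, 25.1 and 19.2 FPKM. That share is near the 7.63% of all genes. Without saline 1, which was the highest saline library for this list, 4 of the 10 were called higher (median 0.86), and without any other single library none was called higher. The median was -0.07, -0.39 and -0.15 without saline 2, 3 and 4 in turn, and 1 gene was called lower without loxP/loxP 3. Of 6 aryl hydrocarbon receptor genes 2 were called lower (median -0.04, or 0.62 with scaling on the EC markers and 0.32 without saline 1), Ahr itself (-1.63 ± 0.39) and its target Cyp1a1 (-2.55 ± 0.30), while Nqo1 was called higher.

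Clock genes were called in 4 of 18 cases, 3 higher and 1 lower (median -0.07), or 6 and 0 with scaling on the EC markers (median 0.48). Over all genes tested, 7.63% were called higher and 3.73% lower. The hour of sampling is not given in the sources used here. Cry1, a repressor of the clock, was at 5.36, 3.94, 3.32 and 4.07 FPKM in saline and 16.1, 15.3 and 18.9 FPKM in loxP/loxP (log2 fold change 1.79 ± 0.15, adjusted p = 0.000543). Bhlhe40, a further repressor, was at 15.9, 4.12, 4.67 and 4.43 FPKM and 30.2, 31.7 and 42.3 FPKM (log2 fold change 2.30 ± 0.42, adjusted p = 0.00717). Nr1d1, which encodes REV-ERB alpha, was at 30.5, 50.8, 64.3 and 53.1 FPKM and 20.2, 16.3 and 19.99 FPKM (log2 fold change -1.31 ± 0.24, adjusted p = 0.00749). Per2 rose by 1.16 ± 0.32 and lost its call without saline 1 (0.93). Dbp, a clock output gene, was at 1.89, 19.3, 25.01 and 22.1 FPKM and 7.59, 6.56 and 11.8 FPKM, where saline 1 lay under the treated libraries (adjusted p = 0.609), and it was called lower without saline 1 (-1.29).

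The window before Cry1 (chr10:85185055-85185304, minus strand) is printed since Cry1, of 2 called clock genes with a window, holds an E-box (CACGTG, capitals), at -60.
Cry1: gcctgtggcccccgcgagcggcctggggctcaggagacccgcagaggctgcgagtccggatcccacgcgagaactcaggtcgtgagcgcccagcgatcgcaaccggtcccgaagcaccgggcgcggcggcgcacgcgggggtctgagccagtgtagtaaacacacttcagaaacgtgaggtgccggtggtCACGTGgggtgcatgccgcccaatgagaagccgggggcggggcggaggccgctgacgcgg
E-box letters stood in 5 of 15 tested clock genes with a window and in 6.02% of all windows. The D-box TTANGTAA and the RORE core TAGGTCA stood in 1 each, against 2.06% and 2.23%.

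Inmt, Npnt, Pcolce2, Ogn, Abi3bp, Wfdc1, Upk1b and Sox11 were among the largest falls outside the EC lists. They were named by the rule for the largest falls, and a shared cell type or tissue was not tested. Npr3, Cyp1a1 and Ddit3 were named by the same rule and are given in other paragraphs. Inmt, a methyltransferase of indoles, was at 229, 356, 252 and 410.3 FPKM in saline and 32.4, 19.9 and 26.4 FPKM in loxP/loxP (log2 fold change -3.51 ± 0.25, adjusted p = 0.000351). Npnt, or nephronectin, of the basement membrane was at 48.5, 56.03, 28.6 and 49.5 FPKM and 4.32, 4.798 and 6.41 FPKM (log2 fold change -2.89 ± 0.24, adjusted p = 0.000482). Pcolce2, which enhances procollagen processing, was at 15.8, 19.6, 11.4 and 19.02 FPKM and 1.13, 0.529 and 1.35 FPKM (log2 fold change -3.12 ± 0.22, adjusted p = 0.000351). Ogn and Abi3bp, matrix proteins, fell by 2.60 ± 0.32 and 2.57 ± 0.22, and Wfdc1 by 2.91 ± 0.47. Upk1b, a uroplakin of mesothelium and urothelium, was at 7.1, 6.48, 2.48 and 6.14 FPKM in saline and at 0.0272, 0 and 0.104 FPKM, 0 to 4 reads, in loxP/loxP (log2 fold change -2.58 ± 0.29, adjusted p = 0.00148). Sox11, a transcription factor, fell by 3.04 ± 0.42 with 0.102, 0.115 and 1.72 FPKM in loxP/loxP. The fibroblast markers summed to 61.5, 63.1, 35.9 and 55.9 FPKM in saline and 23.7, 20.6 and 28.7 FPKM in loxP/loxP, with Pdgfra at 13.7, 11.1, 4.803 and 10.3 FPKM and 2.204, 1.27 and 1.52 FPKM (log2 fold change -1.98 ± 0.31, adjusted p = 0.0042), and their part in these falls was not tested. Dcn, or decorin, went the other way, from 0.855, 0.799, 0.6197 and 0.894 FPKM to 4.95, 4.96 and 4.31 FPKM (log2 fold change 1.68 ± 0.12, adjusted p = 0.000351).

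WT mice given 10 mg/kg LPS (n = 6) and iΔEC/iΔEC mice given 2 mg/kg (n = 3) were set beside as values. The 10 mg/kg comparison uses the same saline libraries, so that it is no independent support. For Saa3 the log2 fold change over saline was 7.58 at 2 mg/kg in loxP/loxP and 9.44 at 10 mg/kg in WT, for Ccl3 6.65 and 6.99, for Tnf 4.66 and 5.14, for Aplnr -3.83 and -3.81, and for Ednrb -2.60 and -2.42. Vcam1 was at 29.4 ± 4.93 FPKM in loxP/loxP (mean ± SD) and at 9.02 ± 3.46 FPKM at 10 mg/kg, and at 26.4, 23.5 and 35.1 FPKM in iΔEC/iΔEC. The macrophage receptor gene Csf1r had differences of 3.18 and 4.84, and Nr1d1 of -1.31 and -4.25. Which of dose, genotype, tamoxifen and experiment these differences follow cannot be told apart.

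Genes called at 2 mg/kg whose values at 10 mg/kg lay farthest on the other side of saline were named by rule, as a description. Ddit3, the stress factor CHOP, was at 7.53, 5.68, 8.61 and 6.63 FPKM in saline, 0.464, 0.279 and 0.348 FPKM in loxP/loxP and 12.03 to 32.02 FPKM at 10 mg/kg, while iΔEC/iΔEC libraries spread from 0.1 to 5.66 FPKM. Rpl35a, of the large ribosomal subunit, was at 66.6, 44.3, 43.95 and 42.9 FPKM in saline, 11.9, 9.36 and 8.81 FPKM in loxP/loxP, 7.31, 7.52 and 7.82 FPKM in iΔEC/iΔEC and 60.5 to 132 FPKM at 10 mg/kg. Its processed pseudogene Rpl35a-ps2 had the reverse order, at 4.92, 2.47, 3.34 and 2.304 FPKM in saline, 33.6, 25.3 and 33.2 FPKM in loxP/loxP, 29.5, 35.2 and 35.2 FPKM in iΔEC/iΔEC and 3.81 to 8.72 FPKM at 10 mg/kg. Reads of such near-identical copies can be assigned to either, so that both values are uncertain. Cdo1, a dioxygenase of cysteine, was at 39.8, 29.6, 13.7 and 39.7 FPKM in saline and 13.2, 12.6 and 11.1 FPKM in loxP/loxP (log2 fold change -1.15), with a difference of 0.06 at 10 mg/kg. Hfe, a regulator of iron uptake, and Hsd11b1, which reactivates glucocorticoids, were called lower at 2 mg/kg (-1.04 and -1.61) and had differences of 0.89 and 0.12 at 10 mg/kg. In iΔEC/iΔEC, Hfe was at 15.18, 13.35 and 12.63 FPKM and Hsd11b1 at 3.449, 6.692 and 5.62 FPKM. The rises of this kind were the immunoglobulin genes Igkc, Igkv5-43, Igkv8-24 and Ighv9-3 and Sncg, or gamma-synuclein (1.06 against -1.20).

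Igha and Jchain were higher in every library of the second experiment than in any library of the first. Igha (mm10 chr12:113254830-113260236, minus strand), the constant region gene, can share reads with other immunoglobulin genes, and was at 0.615, 2.21, 0.0626 and 1.25 FPKM in saline, 203, 148 and 77.1 FPKM in loxP/loxP (log2 fold change 6.15 ± 0.44, adjusted p = 0.000351), 19.8, 59.5 and 38.6 FPKM in iΔEC/iΔEC and 0.25 to 6.22 FPKM at 10 mg/kg. Jchain, which joins IgA dimers, was at 1.51, 0.618, 0.155 and 0.284 FPKM in saline, 51.6, 33.1 and 16.6 FPKM in loxP/loxP, 4.14, 11.3 and 9.49 FPKM in iΔEC/iΔEC and 0 to 1.54 FPKM at 10 mg/kg. The variable segment gene Igkv8-21, of the 15 largest rises, was at 1.17, 2.99, 0 and 3.48 FPKM in saline and spread over 211, 82.5 and 18.6 FPKM in loxP/loxP (4.81 ± 0.84). In iΔEC/iΔEC it was at 0.305, 18.1 and 4.49 FPKM, 1 of them within the saline range. The B cell marker Cd79a did not share this order, at 59.5, 80.5, 13.1 and 65.6 FPKM in saline and 35.2, 35.7 and 31.8 FPKM in loxP/loxP. Prss23, a serine protease, was at 33.5, 12.2, 14.3 and 12.97 FPKM, 103, 135 and 85.4 FPKM, 179.6, 209.5 and 159 FPKM and 5.95 to 18.99 FPKM in the same order of groups, and Marveld2 at 1.32, 1.12, 1.04 and 0.832 FPKM, 5.58, 4.45 and 4.89 FPKM, 6.59, 4.72 and 5.79 FPKM and 0.427 to 0.735 FPKM. Counted after these values had been seen, all 6 libraries of the second experiment lay on the same side of all 10 of the first in 214 genes (1.40%) of all tested, of which 120 were higher and 94 lower. Of the genes called, 66 of 1167 higher and 29 of 571 lower were of this kind. Vcam1 was among the higher ones, and Ddit3, Rpl35a, Hfe, Hsd11b1 and Upk1b were among the lower ones.

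**Figure D5:**
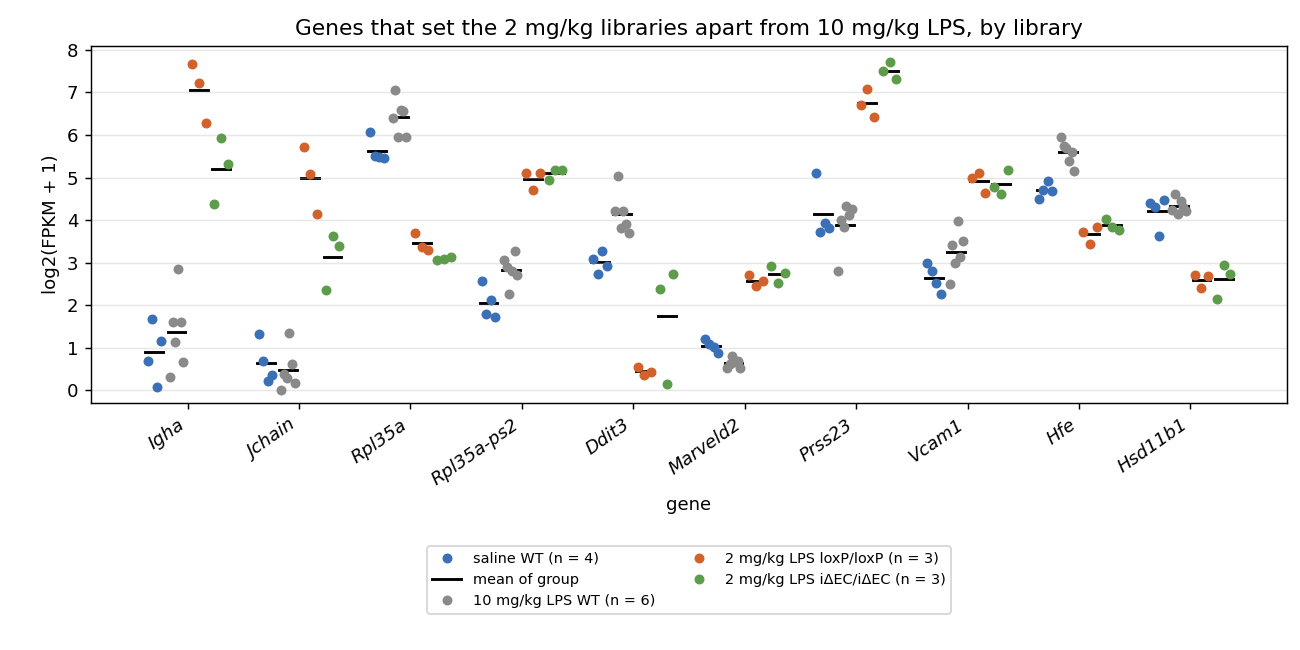
log2(FPKM + 1) of 10 genes (x axis) in each library of saline WT (n = 4), 10 mg/kg LPS WT (n = 6), 2 mg/kg LPS loxP/loxP (n = 3) and 2 mg/kg LPS iΔEC/iΔEC ECs (n = 3), with black bars at group means. For each of the 10 genes all libraries of the second experiment, at 2 mg/kg, lie on the same side of all libraries of the first. They lie lower for Rpl35a, Ddit3, Hfe and Hsd11b1 and higher for the others, Vcam1 included.

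Sex-linked and strain-variable genes were read as a check of the groups. The Y-linked genes Ddx3y and Eif2s3y were at 17.7 to 32.1 FPKM and 15.7 to 19.3 FPKM in saline and 19.6 to 21.2 FPKM and 14.9 to 16.7 FPKM in loxP/loxP, so that Y-linked transcripts were read in all 7 libraries. Xist, which is transcribed from the inactive X chromosome, was under 0.02 FPKM in each. None of the 4 tested sex-linked and 3 tested strain-variable genes was called, although the Y-linked Kdm5d (log2 fold change -0.44) and the strain-variable Wdfy1 and Ide had groups apart and adjusted p (limma) of 0.0447, 0.0233 and 0.0241, with changes under the limit. Scaling on the EC markers called 2 of the 3 strain-variable genes higher and turned the median of the sex-linked list from -0.12 to 0.48. Nnt and Entpd4 of the strain-variable list were under the filter, and Wdfy1, Ide and Glo1 had log2 fold changes of 0.60, 0.38 and -0.17.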

How the data were processed

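RNA-seq was measured in bead-isolated mouse pulmonary ECs. By the submitters' processing notes the reads were aligned with HISAT2 2.0.5 to mm10 and counted with featureCounts 1.5.0-p3, and the study tested counts with DESeq2. The authors deposited FPKM per gene in a table for each experiment, scaled separately, for 54532 genes. FPKM times length gave whole reads for 100% of the values in each library (tolerance 0.01), and 3 reads were taken as the floor. The 11 symbols that had become dates in the second table were taken from the first, and 0 columns belonged to no sample.

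The 7 libraries were joined by gene identifier and rescaled by the median of ratios over 16972 genes above 0 in all of them. Values were compared as log2(FPKM + 1), with a pseudocount of 1, over genes whose mean reached 0.5 FPKM, by limma 3.58.1 (lmFit and eBayes with intensity trend, R 4.3.3). A call needed an adjusted p (Benjamini-Hochberg) of 0.05 or less and a change of 1 or more on the log2 scale in either direction. Errors of fold changes are standard errors. The labels give the libraries as separate samples, so that p-values set the difference between groups against the spread between these samples. Whether a library holds a single mouse or a pool is not stated in the sources used here. For Fgfr1, Rock1 and Rock2 the test was a two-sided exact permutation test. Tables were made with pandas 2.3.3, scipy 1.17.1 and numpy 2.4.6 under Python 3.11.15 and figures with matplotlib 3.10.9. The fit was tested on simulated data.

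The members and lists were chosen with earlier results of these data known, so that lists are given as counts and medians, with no test. Named were the genes of the study, the 15 largest rises and 15 largest falls with groups apart, at least 1 FPKM and at least 10 reads in every library of the higher group, the 4 largest changes of each list with members that carry a role (some genes and a gene list are not reported here), the 5 rises and 5 falls farthest on the other side at 10 mg/kg, and the sex-linked and strain-variable genes. Promoter windows came from RefSeq (GRCm38.p6).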

Additional observations from a re-analysis of the deposited data

Results flagged for a closer look

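Over 237 genes and list means, 1 saline library lay so far from the other saline libraries in 51 that its gap to the nearest, as a share of the range of the group, exceeded Dixon's critical value for 4 samples. For single items not chosen by their values, chance would give about 1 in 20, or 11.85 here, but this is no valid baseline for these items. List means share members with the genes, all items were read in the same 4 libraries, and the items were chosen with results known. Where only 1 saline library held reads, the share was 1 by construction. Whether 51 exceeds chance was not tested. The loxP/loxP group has 3 libraries and was not examined in this way. All values in this part are log2(FPKM + 1) or means of it over a list.

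Saline 1 was the far library most often, and mostly on the side of the loxP/loxP libraries. In LPS sensing and its feedback it was at 6.58 for Cd14 (the others 1.67 to 2.14), 9.42 for Nfkbia (the others 7.06 to 7.23), 7.03 for Socs3 (the others 4.4 to 4.63), 4.36 for Tnfaip3 (the others 2.41 to 2.59) and 3.49 for Traf6 (the others 2.52 to 2.66). In chemokines it was at 3.84 for Ccl9 (the others 1.08 to 1.44), 1.26 for Cxcl1 (the others 0 to 0.134) and 1.69 for Cxcl3 (the others 0 to 0.0619). Adhesion genes were at 1.86 for Sele (the others 0.982 to 1.03) and 4.24 for Selplg (the others 2.28 to 2.53), and 3.7 for Bst1, 2.23 for F10, 6.2 for Lpl, 4.99 for Nos3 and 5.11 for Prss23 were high as well. Glucocorticoid and clock genes followed, with 3.99 for Fkbp5 (the others 0.79 to 1.08), 4.08 for Bhlhe40 (the others 2.36 to 2.5) and 1.53 for Dbp (the others 4.34 to 4.7). Low values in saline 1 were 4.44 for Ahr, 6.27 for Kit and 6.33 for Tjp1, while Cdh5 (9.61), Wfdc1 (7.06) and Rpl35a (6.08) were above the other saline libraries and away from loxP/loxP.

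The list means of saline 1 were the highest saline values for glucocorticoid-responsive genes (7.15), TLR feedback regulators (4.45), immediate early genes (4.1), CC chemokines (1.67), CXC and CX3C chemokines (2.7), acute phase genes (1.9) and LPS sensing (3.24). The same held for vasoactive genes (4.96), glycolysis and hypoxia (4.12), redox and metal genes (3.87), ribosomal protein genes (6.71) and the genes that the study names (4.86).

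Saline 3 was low for the lymphocyte markers, with a list mean of 1.74 against 3.19 to 3.33 in the other saline libraries, and was at 3.82 for Cd79a (the others 5.92 to 6.35). Further low values were 1.74 for Cp, 4.24 for Cxcl14, 0.543 for Ikbke, 3.89 for Ogn, 1.8 for Upk1b and 2.11 for Notch3. It was high for Car4 (8.06) and Cxcl16 (3.83). Saline 2 was at 3.74 for Tnip1 (the others 3.56 to 3.57), a gap that is small beside the rise of Tnip1. Few reads stood behind the remaining cases, in which 1 saline library held reads and the others none, namely Ccl12 in saline 2 (0.118) and Ccl7 (0.328), Ccl8 (1) and Saa2 (0.0574) in saline 4. Which property of saline 1 or saline 3 these values follow was not tested.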

How the results depend on the processing

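The main comparison gave 1167 genes higher and 571 lower by limma. With no limit on the fold change 2548 were higher and 1969 lower. With log2(FPKM + 0.1), 1406 and 981 were called, and with limma-voom on read numbers 1584 and 987. Scaling on the EC marker list gave 3702 and 158 and moved the median of all genes to 0.59 on the log2 scale. Total reads gave 1123 and 668, and quantile normalization 962 and 744, so that the higher share of calls, 67.1%, became 95.9%, 62.7% and 56.4%. Leaving out 1 library gave 835 to 1445 higher and 366 to 703 lower, with the lowest counts without loxP/loxP 2 and the highest without saline 1. A replicate block over the 3 shared numbers gave 621 and 315. The same 6 libraries without the block, chosen after seeing the data, gave 974 and 480, and deviations of same-numbered libraries correlated at -0.13, -0.18 and -0.05, so that the libraries share only a number. None of the named genes that were called changed direction in any alternative. Of the 188 genes named in the text, 103 kept their side of the limits in every alternative, and over all alternatives 261 calls were lost and 63 gained. The 261 include both fits of the 6 libraries without saline 4, each with 21 calls lost. Depth limits the genes with few reads in saline, and precision is limited by 4 and 3 libraries. Reads are not independent molecules, so that read numbers cover counting error only. The alternatives cannot separate experiment from treatment.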

Other observations

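The genes in this part were chosen after their values had been seen, and they are given as values. Ccl5, Ccl17 and Cxcl16, chemokines known to act on T cells, were called higher, which does not hold for every such chemokine, since Cxcl12 and Cx3cl1 were not. Ccl5 was at 29.5, 7.09, 4.58 and 4.47 FPKM in saline and 91.4, 76.5 and 39.9 FPKM in loxP/loxP (log2 fold change 2.83 ± 0.62, adjusted p = 0.0141, limma). Ccl17, a ligand of CCR4, was at 1.89, 0.356, 0 and 0.796 FPKM and 12.6, 35.8 and 27.3 FPKM (log2 fold change 3.89 ± 0.44, adjusted p = 0.00142, limma). Cxcl16, a membrane-anchored ligand of CXCR6, was at 7.57, 7.99, 13.2 and 7.805 FPKM and 55.5, 52.5 and 18.6 FPKM (log2 fold change 1.98 ± 0.39, adjusted p = 0.00943, limma). All 3 had groups apart, and loxP/loxP 3 was the lowest treated library for Ccl5 and Cxcl16 but not for Ccl17.

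Of 8 mural markers, which mark pericytes and smooth muscle, 2 were called lower, with a list median of -0.13 (0.24 with scaling on the EC markers), and 3 had positive differences, Acta2 at 2.08, Cnn1 at 0.93 and Myh11 at 0.39, which were not called. Pdgfrb, the receptor of PDGF-B, was at 15.3, 17.6, 8.38 and 20.5 FPKM in saline and 4.11, 4.598 and 4.501 FPKM in loxP/loxP (log2 fold change -1.54 ± 0.27, adjusted p = 0.00599, limma). Notch3 was at 8.26, 8.26, 3.31 and 8.67 FPKM and 1.86, 2.51 and 3.32 FPKM (log2 fold change -1.14 ± 0.31, adjusted p = 0.0296, limma). Saline 3 met loxP/loxP 3 in Notch3 and was the lowest saline library in both, as it was for Pdgfra, Ogn and Upk1b above.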
